A study of Homo sapiens with 5 samples.

Results

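Genes of glycolysis and of the transcriptional response to low oxygen were followed across 5 arrays of the TF-1 cell line, established from a human erythroleukaemia and resembling an erythroid progenitor. The set was defined by name and holds 34 genes: 17 glycolytic enzymes including both lactate dehydrogenase subunits, 7 genes of glucose and lactate transport and of the regulation of glycolysis, and 10 other genes of the hypoxia response. A gene was represented by the probe set that carried its symbol alone in the platform annotation and, where several did, by the one with the highest mean log2 signal over the 5 arrays. By this rule 31 of the 34 genes were represented, out of 11963 genes on the array. SLC16A1, SLC16A3 and CA9 had no probe set that carried their symbol alone, and their expression was not analysed here.

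Cells carried either an MSCV-GFP retroviral vector without insert or the same vector with DbSCL, a form of the basic helix-loop-helix factor SCL (encoded by TAL1) that cannot bind DNA. All cells were kept in GM-CSF, starved of cytokine overnight, and given a new cytokine for 6 h. Vector cells received GM-CSF at 5 ng/mL, Steel factor (SF, the ligand of c-Kit) at 20 ng/mL or erythropoietin (Epo; no dose is stated), and DbSCL cells received SF or Epo. Each of these 5 groups was 1 array, so no difference below has a replicate check and no p-value was computed. No group was left without cytokine, and DbSCL cells had no GM-CSF array.

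In glycolysis, glucose enters through facilitative transporters, is phosphorylated by hexokinase and is broken down to pyruvate, which lactate dehydrogenase interconverts with lactate. The hypoxia-inducible factors are dimers of an oxygen-labile alpha subunit, such as HIF1A, with ARNT. Prolyl hydroxylases such as EGLN1 mark the alpha subunit for destruction when oxygen is present. The dimer binds a short core motif in DNA and is known to raise many glycolytic genes together with genes of angiogenesis, mitophagy and collagen synthesis. Red cells have no mitochondria when mature and depend on glycolysis for ATP.

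The promoters of 6 members are printed because these genes carry the differences described below: PGK1 and GAPDH were lower with DbSCL under Epo, PKM and HIF1A were lower with DbSCL under SF, and LDHA and BNIP3 are well-known hypoxia-responsive genes that differed by 0.22 or less between DbSCL and vector cells under either cytokine. Each line gives the 250 bases before a RefSeq start site (GRCh38.p14), 5′ to 3′ in the direction of transcription. Capitals mark matches to the core motif of hypoxia-inducible factors, ACGTG or GCGTG, on either strand.
PGK1, chrX:78103998-78104247, plus strand: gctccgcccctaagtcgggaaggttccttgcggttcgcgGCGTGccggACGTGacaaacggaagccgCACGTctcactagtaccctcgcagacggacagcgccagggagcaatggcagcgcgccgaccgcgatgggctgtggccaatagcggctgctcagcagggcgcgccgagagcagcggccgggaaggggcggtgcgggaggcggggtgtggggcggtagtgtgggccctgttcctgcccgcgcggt
GAPDH, chr12:6535014-6535263, plus strand: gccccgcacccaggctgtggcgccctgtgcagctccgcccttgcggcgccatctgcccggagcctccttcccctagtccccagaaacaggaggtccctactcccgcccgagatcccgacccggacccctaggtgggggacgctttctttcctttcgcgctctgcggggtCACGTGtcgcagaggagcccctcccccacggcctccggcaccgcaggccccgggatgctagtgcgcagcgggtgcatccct
LDHA, chr11:18394313-18394562, plus strand: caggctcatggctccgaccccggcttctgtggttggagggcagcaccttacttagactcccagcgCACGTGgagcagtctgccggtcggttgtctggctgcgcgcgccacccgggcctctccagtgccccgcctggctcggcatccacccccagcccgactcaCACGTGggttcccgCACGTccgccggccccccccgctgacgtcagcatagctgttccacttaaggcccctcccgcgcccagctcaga
PKM, chr15:72231191-72231440, minus strand: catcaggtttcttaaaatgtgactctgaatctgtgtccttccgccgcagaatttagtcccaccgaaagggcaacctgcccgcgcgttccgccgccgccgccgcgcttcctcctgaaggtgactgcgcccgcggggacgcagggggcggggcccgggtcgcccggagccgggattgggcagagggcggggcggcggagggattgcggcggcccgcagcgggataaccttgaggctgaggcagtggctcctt
HIF1A, chr14:61695263-61695512, plus strand: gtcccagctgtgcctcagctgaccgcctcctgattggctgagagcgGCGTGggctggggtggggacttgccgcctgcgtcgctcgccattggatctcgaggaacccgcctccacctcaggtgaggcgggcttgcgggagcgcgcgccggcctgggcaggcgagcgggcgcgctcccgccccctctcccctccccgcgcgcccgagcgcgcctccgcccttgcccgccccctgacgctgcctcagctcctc
BNIP3, chr10:131981924-131982173, minus strand: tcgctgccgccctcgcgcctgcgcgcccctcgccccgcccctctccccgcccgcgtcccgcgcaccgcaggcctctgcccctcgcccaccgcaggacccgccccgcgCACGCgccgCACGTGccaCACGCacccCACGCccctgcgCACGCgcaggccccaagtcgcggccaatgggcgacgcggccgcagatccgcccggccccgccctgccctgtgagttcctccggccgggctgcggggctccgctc
PGK1 had 3 matches, GAPDH 2, LDHA 5, PKM 0, HIF1A 1 and BNIP3 6 in these windows. LDHA and HIF1A each have another RefSeq start further downstream, whose windows, not printed, held 1 and 0 matches. The palindrome CACGTG counts as 2 matches, 1 on each strand, and is also an E-box. RefSeq windows were found for 30 of the 34 members, with 59 start sites between them, 5 of SLC16A3 and 1 of CA9 included, and the 250 bases before each start were searched. The core motif was present in 35 of these 59 windows (59.3%), against 43.2% of 35116 RefSeq windows of the same length and 53.5% of 10523 windows of genes with a signal. It was present in 19 of 37 windows of enzymes (51.4%) and in 9 of 11 of other hypoxia-response genes (81.8%). A window is a start site and not a gene, and some windows overlap. HK1 and PFKM had the most starts among the enzymes, and most of their windows held no match, which lowers the enzymes' share. VEGFA and NDRG1 had no window. The E-box CANNTG, the general motif of basic helix-loop-helix factors, was present in 27 of 59 (45.8%), against 61.8% of all windows and 55.3% of those of genes with a signal. A match is a description of the letters and not a bound site.

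The deposited values are log2 probe set signals. Signals under a floor of 4.45 (the 40th percentile over all arrays, controls left out) were set to it, and a gene was compared when at least 1 of the 2 arrays was above it. Of the 31 genes, 30 were above the floor on all 5 arrays. ADM, which encodes the peptide adrenomedullin, was below it on every array (3.99 to 4.11) and was not compared. A difference is the log2 signal of the first array minus that of the second, and genes were counted at 2-fold (a difference of 1) and at 1.5-fold (0.58). Without replicates, the spread of a single difference was estimated from how far the DbSCL differences under SF and under Epo disagreed among all genes of similar signal, and it ran from 0.17 to 0.24 at the signal levels of these members. It includes any real disagreement between the cytokines and leaves out a shift shared by many genes of an array. Of all probe sets, 58.4% had exactly the same value on 2 or more of the 5 arrays. These identical values enter the spread too, and their effect on it was not tested. Some differences of 0.00 below, such as that of PFKFB3 under Epo, lie between such identical values.

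The arrays were alike in the main (Pearson's r across 7918 genes from 0.957 to 0.993, genes not being independent replicates) but differed in their controls. The hybridization controls read 10.53 on vector GM-CSF, 10.02 on vector SF, 9.58 on vector Epo, 10.57 on DbSCL SF and 9.78 on DbSCL Epo. The 28S ribosomal RNA signal was lowest on vector Epo (5.80) and highest on vector GM-CSF (7.82). The TAL1 probe set, which may not report the construct, read 8.29 and 8.31 on the DbSCL arrays (SF, Epo) and 8.31 and 8.59 on the vector ones. All 12 markers of this line with a probe set, among them GATA1, KLF1, KIT and CSF2RB, were above the floor on all 5 arrays, although CSF2RA only just (4.60 to 4.82). The epithelial markers EPCAM, CDH1 and KRT19 were below it on all of them. Of the other marker genes, CD3D (6.45 to 6.74), CD3E, CD2, CD79A, COL1A1 (up to 7.32) and COL1A2 gave signals above the floor, MS4A1 only on vector GM-CSF, and COL3A1 none.

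**Figure D1:**
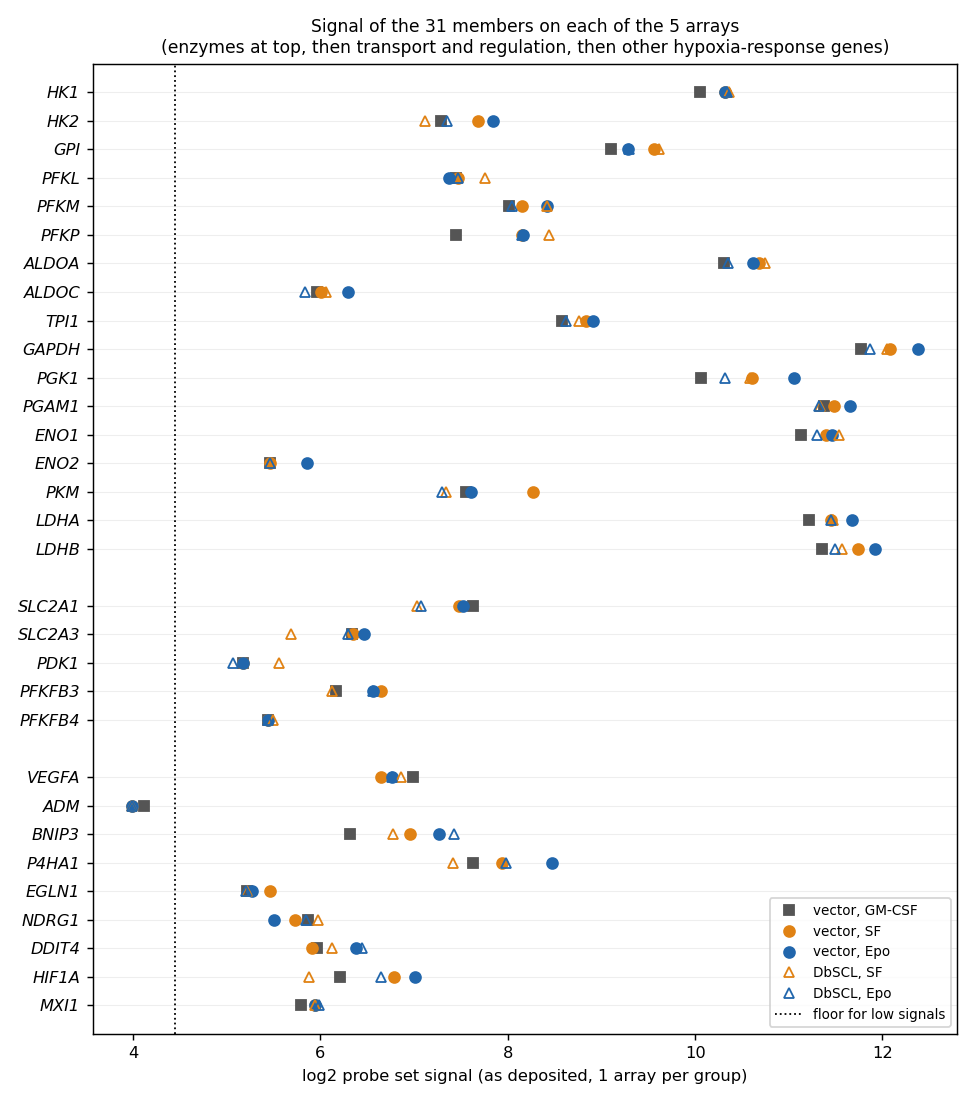
Log2 signal (horizontal axis) of the 31 represented genes (rows, grouped by role) on the 5 arrays; squares are vector GM-CSF, filled circles vector cells, open triangles DbSCL cells, orange SF and blue Epo, and the dotted line is the floor of 4.45. For GAPDH, PGK1 and LDHB the filled blue circle (vector Epo) lies furthest to the right and the grey square (vector GM-CSF) furthest to the left, while HIF1A and SLC2A3 have their lowest signal in DbSCL SF.

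The central comparison asked how these genes differ between DbSCL and vector cells under the same cytokine, and whether glycolytic enzymes and other hypoxia-response genes differ alike. Under Epo the glycolytic enzymes were lower in DbSCL cells, by a median of 0.32 on the log2 scale, with 14 of 17 below 0. Among those below 0, PFKP, ENO1 and LDHA differed by less than their spread (0.22, 0.24 and 0.24). The other hypoxia-response genes had a median of 0.02, with 4 of 8 below 0 and 4 above. Under SF the medians were 0.02 for the enzymes, with 7 of 17 below 0 and 9 above, and −0.09 for the other hypoxia-response genes, with 4 of 8 below 0. The gap between the medians, enzymes minus other hypoxia-response genes, was therefore −0.33 under Epo and 0.11 under SF.

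All genes compared had a median of 0.00 under both cytokines, with 46.4% below 0 under Epo and 41.6% under SF. The median signal of the enzymes was 9.37 and that of the other hypoxia-response genes 6.34. The 870 genes of the brightest 10%, from 8.29 upwards, had a median of −0.11 under Epo, with 65.9% below 0. Under SF their median was −0.06, with 61.8% below 0. After a cyclic loess normalization, which takes out differences between arrays that depend on brightness, the enzymes' median under Epo was −0.21, against −0.02 for the brightest 10%. With quantile normalization these values were −0.19 and 0.02.

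No member was 2-fold different between DbSCL and vector cells, where 0.355% of 8450 genes were under SF and 0.371% of 8359 under Epo. At 1.5-fold, 3 of 30 members were lower under SF (PKM, HIF1A and SLC2A3), where 3.68% of all genes were lower, and 1 of 30 was lower under Epo (PGK1), where 2.78% were. No member was 1.5-fold higher under either cytokine, where 1.42% and 0.694% of all genes were. Of all genes past 1.5-fold under Epo 20.0% were higher, and 36.1% with quantile normalization. The share of members that were lower was thus above that of all genes under SF, where it rests on 3 genes, and near it under Epo. Many members are bright, and of the 870 brightest genes 56 were 1.5-fold lower under SF and 52 under Epo. When the probe sets of each gene were averaged, 1 member passed 1.5-fold under SF, HIF1A, and none did under Epo. The count under SF therefore depended on the choice of probe set. By the probe set that stood for each gene, only 1 enzyme passed 1.5-fold under each cytokine, PKM under SF and PGK1 under Epo.

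**Figure D2:**
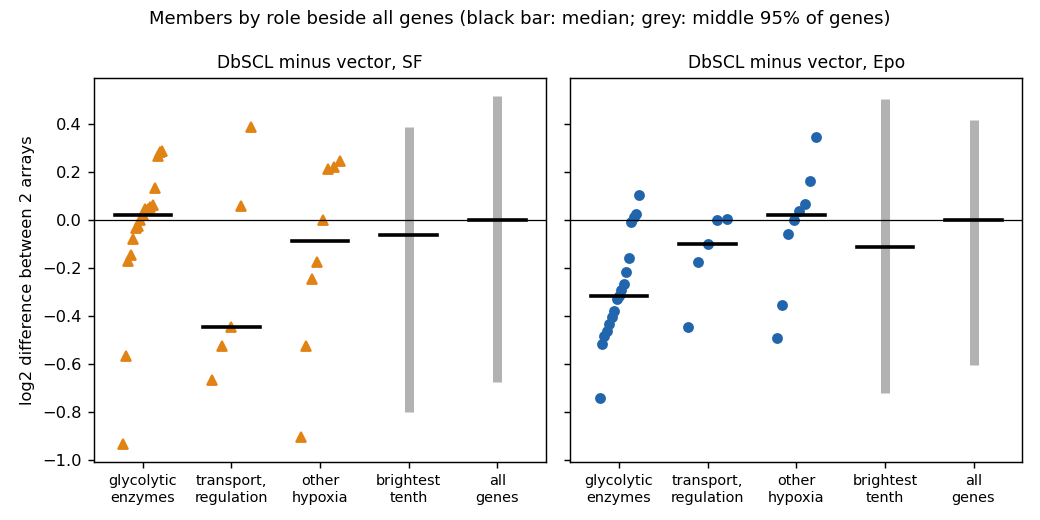
Log2 difference of DbSCL minus vector (vertical axis) under SF (left, triangles) and under Epo (right, circles) for the members of each role, 1 point per gene, beside the brightest 10% of genes and all genes; black bars are medians and grey bars span the middle 95% of genes. Under Epo the median of the enzymes lies at −0.32 and that of the other hypoxia-response genes at 0.02, and most single points lie inside the grey bars.

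PGK1, phosphoglycerate kinase, makes ATP in the first step of glycolysis that yields it. Its log2 signals were 10.07 (GM-CSF), 10.61 (SF) and 11.06 (Epo) on the vector arrays, and 10.58 (SF) and 10.32 (Epo) on the DbSCL arrays. Its DbSCL difference was −0.74 under Epo (1.67-fold lower) and −0.02 under SF. The vector Epo array was the highest of the 5, and under Epo the DbSCL array lay below the vector SF array as well. The probe set 200737_at gave −0.78 under Epo and 0.13 under SF, and the weaker 217356_s_at gave −0.62 and −0.92. The difference under Epo was thus present in all 3 PGK1 probe sets above the floor, and the absence of a difference under SF was not shared by the weaker one. The mean of all PGK1 probe sets gave −0.46 under Epo, under 1.5-fold.

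GAPDH, the dehydrogenase that precedes PGK1 in the pathway, followed the same order of arrays. Its signals were 11.77, 12.08 and 12.38 on the vector arrays (GM-CSF, SF, Epo), and 12.05 and 11.87 in DbSCL cells under SF and Epo. The DbSCL difference was −0.51 under Epo and −0.03 under SF. The other probe sets outside the controls gave −0.45 and −0.62 under Epo, and 0.10 and 0.08 under SF. GAPDH can also be read from 3 control probe sets placed along its transcript, which were not used to represent the gene. Under Epo these gave −0.22 at the 3′ end, −0.77 in the middle and −0.61 at the 5′ end. Under SF they gave 0.30, 0.34 and −0.66.

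The control probe sets of GAPDH therefore disagreed along the transcript under SF. The 3′ minus 5′ signal of GAPDH was 1.58 on vector SF and 2.53 on DbSCL SF, and 2.05 on vector Epo and 2.44 on DbSCL Epo. That of beta-actin was higher on DbSCL than on vector arrays too, by 1.44 under SF and 0.27 under Epo. A larger value means that less of the signal came from the 5′ end of the transcript, and the part of this difference in the results for DbSCL was not tested.

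**Figure D3:**
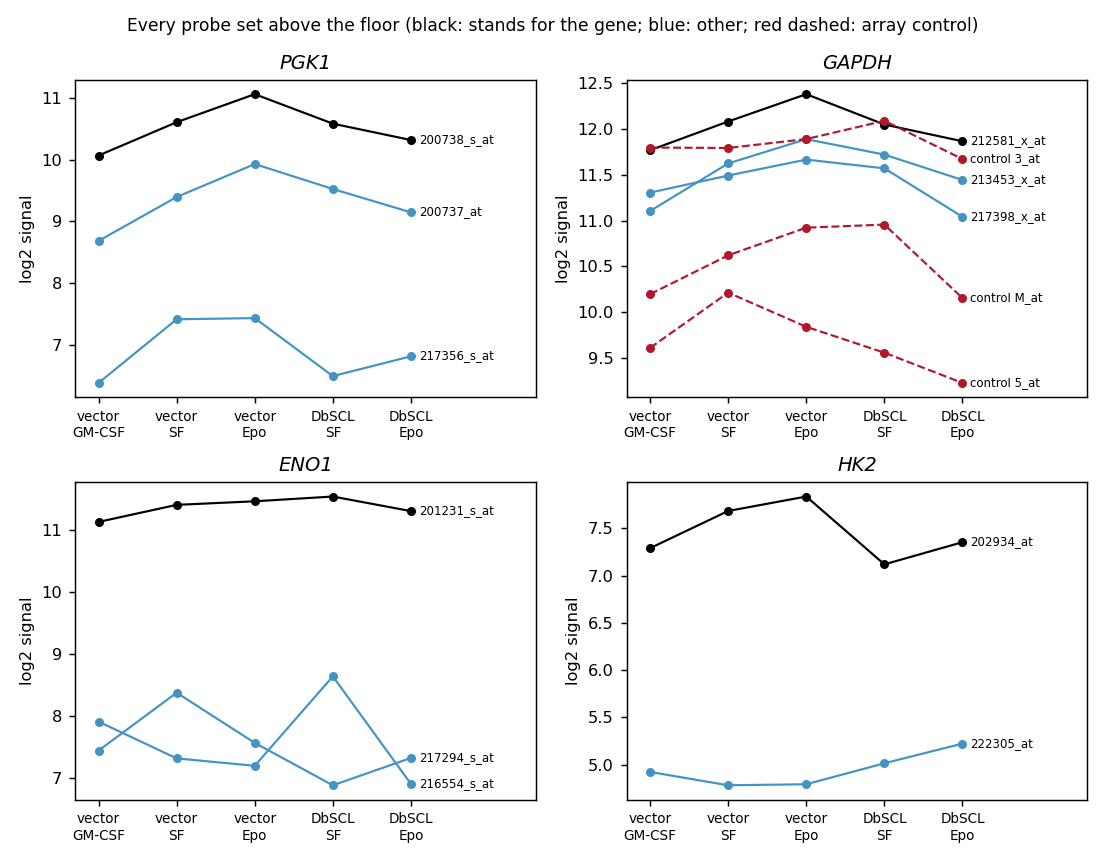
Log2 signal (vertical axes) on the 5 arrays (horizontal axes) of every probe set above the floor for PGK1, GAPDH, ENO1 and HK2; the black line is the probe set that stands for the gene, blue lines are its other probe sets and red dashed lines are array controls. For PGK1 every line is lower on DbSCL Epo than on vector Epo, whereas the blue lines of ENO1 cross, with differences of 1.32 and −1.49 between DbSCL SF and vector SF.

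Upstream of these steps, hexokinase phosphorylates glucose. HK1, the form found in most cells, had 10.05 on vector GM-CSF and 10.31 to 10.36 on the other 4 arrays, so DbSCL and vector arrays were within 0.05 of each other. HK2, the form best known as a hypoxia-responsive gene, had signals of 7.29, 7.68 and 7.84 on the vector arrays (GM-CSF, SF, Epo), and of 7.12 and 7.35 in DbSCL cells under SF and Epo. It was lower with DbSCL under both cytokines (−0.56 and −0.48), short of 1.5-fold. Its other probe set, 222305_at, which lay at 4.78 to 5.22, went the other way (0.23 and 0.43). GPI, the isomerase that follows, differed by 0.05 under SF and 0.01 under Epo. It was the enzyme whose vector SF signal (9.56) most exceeded its vector Epo signal (9.28), apart from PKM.

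Phosphofructokinase, the main control point of glycolysis, has liver, muscle and platelet forms. PFKL had 7.45, 7.47 and 7.37 on the vector arrays (GM-CSF, SF, Epo) and 7.76 and 7.47 in DbSCL cells under SF and Epo, with DbSCL differences of 0.29 and 0.10. PFKM had 8.01, 8.15 and 8.42 in vector cells and 8.41 and 8.04 in DbSCL cells, with differences of 0.27 and −0.38. PFKP had 7.44, 8.15 and 8.16 in vector cells and 8.43 and 8.15 in DbSCL cells, with differences of 0.28 and −0.01. All 3 forms were thus slightly higher with DbSCL under SF, and their directions parted under Epo. For PFKM the order of the DbSCL and vector arrays was opposite under the 2 cytokines, a disagreement of 0.65 that was not tested.

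Of the aldolases, ALDOA had signals of 10.31, 10.68 and 10.61 on the vector arrays (GM-CSF, SF, Epo) and of 10.75 and 10.35 in DbSCL cells under SF and Epo. ALDOC had 5.96, 6.01 and 6.30 in vector cells and 6.06 and 5.83 in DbSCL cells. Both were lower with DbSCL under Epo (−0.27 and −0.46) and close to 0 under SF (0.06 and 0.05). The other ALDOA probe set gave −0.08 under Epo. TPI1, triose phosphate isomerase, was lower under Epo in both probe sets with a signal (−0.29 and −0.39), as was the mutase PGAM1 by its single probe set (−0.33).

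The enolases gave the least clear picture. The ENO1 probe set with the brightest signal had 11.13, 11.40 and 11.46 on the vector arrays (GM-CSF, SF, Epo) and 11.54 and 11.30 in DbSCL cells, with DbSCL differences of 0.13 under SF and −0.16 under Epo. Its 2 other probe sets gave 1.32 and −1.49 under SF, and −0.29 and −0.24 under Epo. ENO2, the form known from neurons, had the same signal of 5.46 on 4 arrays and 5.86 on vector Epo, so that its DbSCL difference of −0.40 under Epo came from that array.

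PKM, pyruvate kinase, stood apart from the other enzymes. Its signals were 7.56, 8.27 and 7.61 on the vector arrays (GM-CSF, SF, Epo), and 7.34 and 7.29 in DbSCL cells under SF and Epo. The vector SF array was higher than the other 4, which lay within 0.32 of each other. The DbSCL difference was −0.93 under SF (1.91-fold lower) and −0.32 under Epo. PKM was also 1.5-fold higher under SF than under GM-CSF and Epo in vector cells (0.71 and 0.66), and these 3 differences share the vector SF array. In DbSCL cells SF and Epo differed by 0.04. The second PKM probe set was below the floor on all arrays, so no other probe set bears on this, and averaging it in gave −0.45 under SF. Neither PKM splice form can be told from the other here.

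Lactate dehydrogenase is built from LDHA and LDHB subunits. LDHA had signals of 11.21, 11.46 and 11.67 on the vector arrays (GM-CSF, SF, Epo), and of 11.47 and 11.46 in DbSCL cells. LDHB had 11.36, 11.74 and 11.92 in vector cells and 11.57 and 11.49 in DbSCL cells. The DbSCL differences under Epo were −0.22 and −0.43, and under SF 0.02 and −0.17. The other LDHB probe set gave −0.36 under Epo and 0.08 under SF. LDHB was thus lower under Epo in both probe sets. The LDHA difference under Epo was within its spread (0.24), and was −0.08 with quantile normalization and −0.09 with cyclic loess. Neither subunit was clearly lower under SF.

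Each enzyme's DbSCL difference was also set against itself under the other cytokine. The difference was less negative, or more positive, under SF than under Epo for 15 of 17 enzymes, the exceptions being HK2 and PKM. The median disagreement was 0.26, against 0.01 for the brightest 10% of genes and 0.02 for all genes, of which 53.9% were above 0. Among other hypoxia-response genes it was −0.07, with 2 of 8 above 0. The disagreement reached 1.5-fold for PGK1 (0.72), PFKM (0.65) and PKM (−0.62), 10% of 30 members. It did so for 6.67% of 8272 genes and for 12.9% of the brightest 10%.

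The glucose transporters were both lower with DbSCL. SLC2A1, the main carrier of red cells, had signals of 7.63, 7.47 and 7.52 on the vector arrays (GM-CSF, SF, Epo), and of 7.03 and 7.08 in DbSCL cells under SF and Epo. Its DbSCL differences of −0.45 and −0.44 were nearly equal under SF and Epo, and both DbSCL arrays lay below all 3 vector arrays. Its other probe set, 201249_at, was above the floor only on vector GM-CSF (4.50). The mean of both SLC2A1 probe sets gave −0.54 under SF and −0.31 under Epo. SLC2A3 had signals of 6.33, 6.35 and 6.46 in vector cells and 5.68 and 6.29 in DbSCL cells. Its difference reached 1.5-fold under SF (−0.67, 1.59-fold lower) and was −0.17 under Epo, the DbSCL SF array being lower than the other 4. Its probe set is of a type that can match related transcripts, and the 2 others that carry its symbol alone were below the floor. Averaging these 3 gave −0.09 under SF. A further 2 probe sets carry the SLC2A3 symbol together with another and were not read.

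Of the regulators, PFKFB3 makes the activator of phosphofructokinase fructose 2,6-bisphosphate, and PDK1 limits the oxidation of pyruvate by inhibiting pyruvate dehydrogenase. PFKFB3 had 6.17, 6.65 and 6.56 on the vector arrays (GM-CSF, SF, Epo), and 6.12 and 6.56 in DbSCL cells, a DbSCL difference of −0.52 under SF and of 0.00 under Epo. PFKFB4 lay between 5.44 and 5.50 on all arrays. PDK1 had the same signal of 5.17 on the 3 vector arrays, 5.56 on DbSCL SF and 5.07 on DbSCL Epo. Its DbSCL difference under SF, 0.38, was the most positive of the 30 members.

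HIF1A, the oxygen-regulated subunit itself, had the second largest DbSCL difference under SF. Its signals were 6.21, 6.79 and 7.01 on the vector arrays (GM-CSF, SF, Epo), and 5.88 and 6.65 in DbSCL cells under SF and Epo. The difference was −0.90 under SF (1.87-fold lower) and −0.36 under Epo. The DbSCL SF array was the lowest of the 5, below vector GM-CSF. The value rests on 1 probe set with a signal on all arrays, so other floors and probe set choices could not change it. With quantile, cyclic loess and median scaling it stayed between −0.91 and −0.88. This is the level of the mRNA, while HIF1A is regulated largely as a protein, which was not measured.

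EGLN1, the hydroxylase that marks HIF1A, was weak, with signals of 5.22, 5.46 and 5.27 on the vector arrays (GM-CSF, SF, Epo) and of 5.22 and 5.21 in DbSCL cells, and DbSCL differences of −0.24 under SF and −0.06 under Epo. P4HA1, a subunit of the collagen prolyl hydroxylase, had signals of 7.63, 7.94 and 8.47 on the vector arrays (GM-CSF, SF, Epo), and of 7.42 and 7.98 in DbSCL cells under SF and Epo. It was lower with DbSCL to nearly the same degree under both cytokines (−0.52 and −0.49). BNIP3, which acts in mitophagy, had 6.32, 6.95 and 7.26 in vector cells and 6.78 and 7.42 in DbSCL cells. Its DbSCL differences were small and opposite in direction (−0.17 under SF and 0.16 under Epo), and the weaker BNIP3 probe set lay between 5.06 and 5.11 on all arrays.

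The remaining hypoxia-response genes were higher with DbSCL or within 0.04 of the vector array. NDRG1 was higher by 0.25 under SF and 0.34 under Epo, and DDIT4, an inhibitor of mTOR complex 1, by 0.22 and 0.07. VEGFA, the angiogenic growth factor, had signals of 6.99, 6.64 and 6.77 on the vector arrays (GM-CSF, SF, Epo), and of 6.86 and 6.77 in DbSCL cells. Its differences were 0.21 and 0.00, and another of its probe sets, 210512_s_at, gave 0.01 under SF and 0.89 under Epo. MXI1, a MAX partner, had the same signal of 5.95 on 3 arrays and differed by at most 0.04 with DbSCL. Of the 8 compared hypoxia-response genes, HIF1A, P4HA1 and EGLN1 were thus lower in DbSCL cells under both cytokines, as were the glucose transporters. The differences of EGLN1 and SLC2A3 under Epo were within their spread (0.17 and 0.18).

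**Figure D4:**
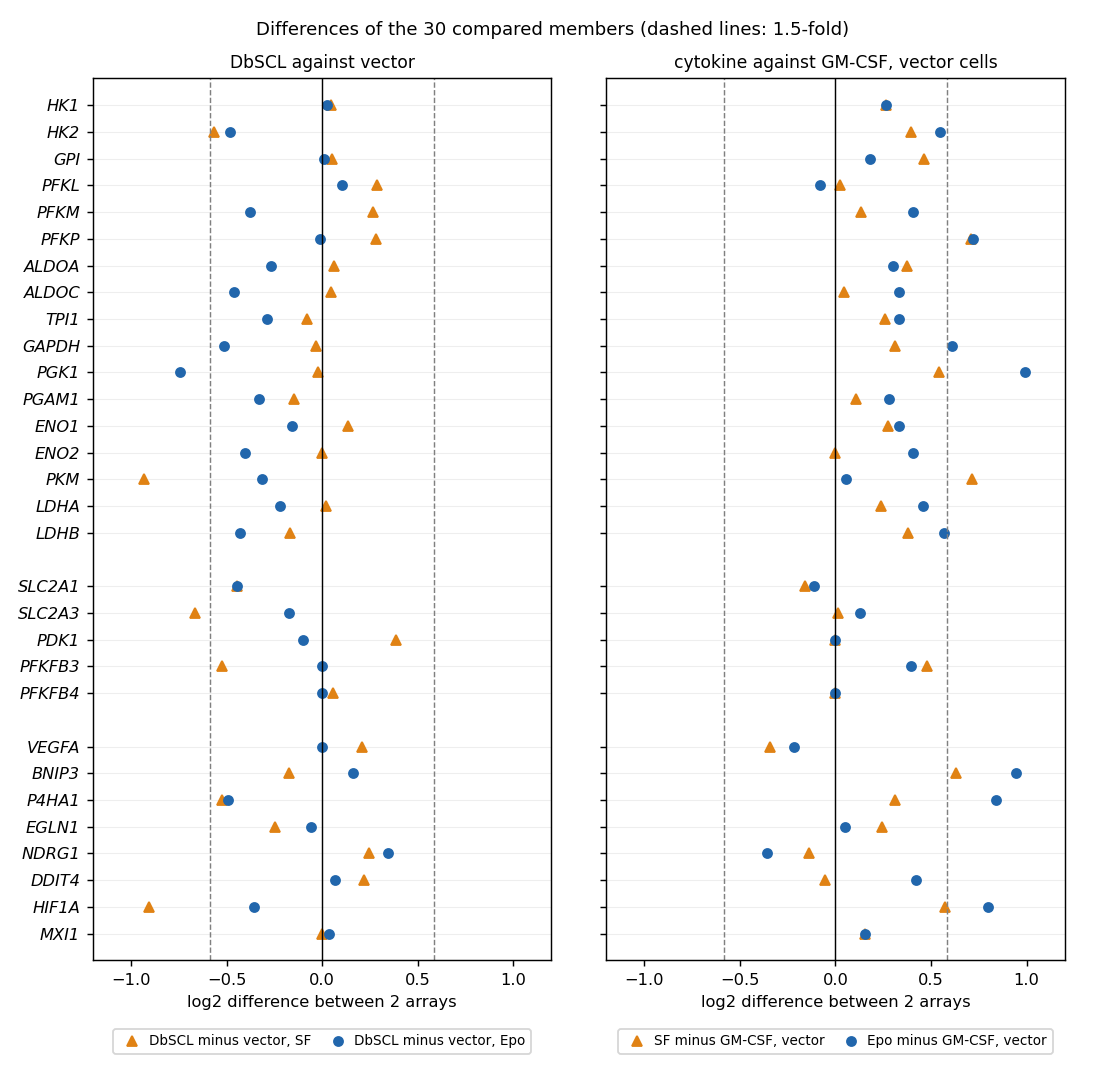
Log2 difference between 2 arrays (horizontal axes) for the 30 compared members (rows, grouped by role), left for DbSCL minus vector under SF (triangles) and Epo (circles), right for SF (triangles) and Epo (circles) minus GM-CSF in vector cells; dashed lines mark 1.5-fold. On the left most circles of the enzymes lie below 0, to −0.74 for PGK1, and on the right most points lie above 0, to 0.99 for PGK1.

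The vector Epo array enters the DbSCL difference under Epo with a minus sign. For 10 of 17 enzymes it was the highest of the 5 arrays, as it was for 25.8% of all genes with a signal. The same share among the brightest 10% of genes was not computed. Relative to GM-CSF in vector cells, the enzymes had a median difference of 0.33 under Epo, with 16 of 17 above 0, and of 0.27 under SF, with 16 of 17 above 0 and none below. These 2 comparisons share the GM-CSF array. The brightest 10% of genes had medians of 0.30 and 0.23, close to those of the enzymes in the deposited scaling. Of these bright genes 78.3% were above 0 under Epo and 82.3% under SF, and of all genes compared 45.3% and 46.2%. With quantile normalization the enzymes' medians were 0.19 under Epo and 0.16 under SF, against 0.02 and 0.02 for the brightest 10%. With cyclic loess they were 0.15 and 0.08, against 0.03 and 0.01. In both, 12 of 17 enzymes were above 0 under Epo and 14 under SF. Of the 870 brightest genes, 447 (Epo) and 448 (SF) were above 0 with quantile normalization, and 463 and 451 with cyclic loess. The hybridization controls read 0.95 lower on vector Epo and 0.51 lower on vector SF than on GM-CSF, and their part in these differences was not tested.

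By the probe set that stood for each gene, no member was 2-fold different from GM-CSF, where 3.58% of 8581 genes were under Epo and 0.596% of 8553 under SF. For PGK1 this probe set gave 0.99 under Epo and 0.54 under SF. Its other probe sets with a signal gave 1.24 and 0.71 (200737_at), and 1.05 and 1.03 (217356_s_at). At 1.5-fold, 6 of 30 members were higher under Epo, where 13.2% of all genes were, and 3 of 30 were higher under SF, where 6.9% were. None was lower under either, where 2.45% (Epo) and 1.29% (SF) of genes were. Under Epo these were PGK1 (0.99), BNIP3 (0.95), P4HA1 (0.84), HIF1A (0.80), PFKP (0.72) and GAPDH (0.61). Under SF they were PKM (0.71), PFKP (0.71) and BNIP3 (0.63). With quantile normalization 3 members were counted under Epo and none under SF, and the share of 1.5-fold genes that were higher was 66.1% and 69.0% in place of 84.4% and 84.3%. PGK1 remained 1.5-fold higher under Epo in all 8 alternatives, between 0.71 and 1.24. HIF1A, whose value could change only with the scaling, remained so too, between 0.69 and 0.80.

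SF and Epo could be compared directly in both cell populations. In vector cells 1 of 30 members was 1.5-fold different, PKM, higher under SF (0.349% of 8312 genes were, and 1.15% were lower). In DbSCL cells 3 of 30 were lower under SF, HIF1A (−0.77), BNIP3 (−0.65) and SLC2A3 (−0.61), where 2.8% of 8472 genes were, and none was higher, where 0.909% were. No member reached 2-fold in either population, where 0.0361% and 0.224% of genes did. The enzymes were on average higher under Epo in vector cells (median of SF minus Epo −0.15, 12 of 17 below 0) and higher under SF in DbSCL cells (0.18, 15 of 17 above 0). Of the brightest 10% of genes, 59.7% were below 0 in vector cells and 36.1% were above 0 in DbSCL cells. The other hypoxia-response genes were lower under SF in both (−0.17 and −0.18). All 4 arrays of this comparison are those of the DbSCL differences, so it restates the same gap from the side of the cytokines.

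Neighbouring pathways were read from lists of genes that are not members. Of the pyruvate dehydrogenase and citric acid cycle genes, which carry pyruvate on into oxidation, 16 of 18 were below 0 with DbSCL under Epo (median −0.19, 2 lower at 1.5-fold) and 11 of 18 under SF (median −0.09). Of all genes 46.4% were below 0 under Epo and 41.6% under SF. A lower signal under Epo in most genes was thus not particular to the glycolytic enzymes. The neighbouring lists were read in the deposited scaling only. The 6 pentose phosphate pathway genes, which branch off after hexokinase, had medians of −0.11 under Epo and 0.03 under SF, and none differed by 1.5-fold. Other isozymes of the glycolytic steps, most of them weak, had medians of 0.02 over 9 genes under Epo and 0.07 over 10 under SF. Of 19 further genes of the HIF pathway, 2 were lower at 1.5-fold under Epo, and 2 were lower and 1 higher under SF, with medians of 0.00. At 1.5-fold, 2.78% of all genes were lower under Epo, and 3.68% were lower and 1.42% higher under SF. No gene of these lists was 2-fold different with DbSCL. The T cell markers were higher with DbSCL under Epo in 3 of 3 genes (median 0.26, none at 1.5-fold), where 41.5% of all genes were higher. The B cell marker CD79A was higher under Epo to the same degree (0.27), and the fibroblast markers COL1A1 and COL1A2 gave 0.00. Under SF the T cell markers gave 0.04 (CD3E), 0.00 (CD3D) and −0.22 (CD2). CD79A gave 0.26 under SF, COL1A1 0.32 and COL1A2 −0.22. The part of these marker signals in the results under either cytokine was not tested.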

How the data were processed

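RNA of TF-1 cells was biotin-labelled by an Affymetrix small sample protocol, per the labels' protocols. The authors deposited 1 log2 signal per probe set and array. The summary and normalization behind these log2 values are not given in the sources used here, and a normalization between arrays could hide a shift shared by most genes. Values were used as deposited. Of 22283 probe sets, 68 array controls were left out and 19065 carried 1 gene symbol in the platform annotation, giving 11963 genes. The number of arrays, 1 per group, limits the precision. No source says whether cultures were separate.

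The members and lists were chosen with earlier results of these data known. Values on all arrays are given for members that differed by 1.5-fold in any of 6 comparisons, for isozyme groups and for GAPDH, PKM, PGK1, HIF1A, EGLN1 and VEGFA. Non-members were named only at 2-fold, apart from cell markers. Promoters were taken from RefSeq (GRCh38.p14), and the printed ones were chosen after the values were seen. Alternatives (quantile, cyclic loess and median scaling, other floors, other probe set choices) used limma 3.58.1 in R 4.3.3, pandas 2.3.3 and numpy 2.4.6. The counting was tested on simulated data at 2-fold only and without identical values, so that test does not bear on the 1.5-fold counts.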

Additional observations from a re-analysis of the deposited data

Results flagged for a closer look

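PFKM was higher in DbSCL than in vector cells under SF (0.27) and lower under Epo (−0.38), each by at least 1.2-fold on single arrays, and the difference between the cytokines was not tested.

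The other entries concern probe sets that did not stand for their gene and differed by 1.5-fold or more between DbSCL and vector arrays. Under SF, 2 ENO1 probe sets gave 1.32 (216554_s_at) and −1.49 (217294_s_at), against 0.13 for the probe set that stood for ENO1. PGK1 gave −0.92 under SF and −0.62 under Epo with 217356_s_at, and −0.78 under Epo with 200737_at. GAPDH gave −0.62 under Epo with 217398_x_at and −0.77 with the middle control probe set. The 5′ control probe set of GAPDH gave −0.66 under SF and −0.61 under Epo. VEGFA gave 0.89 under Epo with 210512_s_at, against 0.00 for the probe set that stood for it.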

How the results depend on the processing

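No member reached 2-fold in any comparison; at 1.5-fold the counts were 3 (DbSCL, SF), 1 (DbSCL, Epo), 3 (SF against GM-CSF), 6 (Epo against GM-CSF), 1 (SF against Epo, vector) and 3 (the same, DbSCL). With the mean of all probe sets they were 1, 0, 1, 5, 0 and 1 in the same order. Quantile normalization gave 0 and 3 against GM-CSF under SF and Epo, and cyclic loess gave 0 under SF. Without probe sets ending in _x_at or _s_at, 1 member was 2-fold higher under Epo than under GM-CSF, PGK1 (1.24). The enzymes' median with DbSCL under Epo, −0.32, became −0.19 with quantile normalization and −0.21 with cyclic loess, and the gap to the other hypoxia-response genes, −0.33, became −0.23 and −0.23. Against the vector SF array in place of vector Epo, chosen after seeing the data and differing in cytokine too, the enzymes' median was −0.18. The 1.5-fold difference of PKM with DbSCL under SF was −0.45 with the mean of all probe sets, that of SLC2A3 was −0.09 and that of PGK1 under Epo −0.46. No 1.5-fold difference of a member changed direction. The causes of these shifts were not tested further. No paired analysis was possible because each group had 1 array and the labels carry no replicate number.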
